A study of Mus musculus with 39 samples.

Results

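Core pluripotency factor genes were placed in the 2 deposited maps of mouse embryonic stem (ES) cell chromatin, one of nucleosome wrapping and one of replication timing (RT). The 10 genes were Pou5f1, Nanog, Sox2, Klf4, Esrrb, Tfcp2l1, Zfp42, Prdm14, Tbx3 and Dppa3. They were chosen by name, and each was assigned by the midpoint of its GENCODE gene to the domain that held it in each map. They are 10 of 21938 protein-coding genes placed in the same way. All 10 had a domain in both maps, so none was lost to a filter.

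The study used wild-type R1 mouse ES cells, a line from the inner cell mass, grown in serum with leukemia inhibitory factor (LIF). The 39 libraries of the study included 4 H3-wrapping-seq libraries from 2 experiments, in which formaldehyde-crosslinked chromatin was cut with micrococcal nuclease (MNase) and recovered with an antibody to histone H3. They also included 8 RT libraries, the S-phase fractions S1 to S4 of 2 experiments, made from cells pulse-labelled with BrdU and sorted by DNA content. The other libraries, among them H4, input, digestion time, cell cycle, triptolide and pulse-chase samples, enter neither map by the study's methods and were not analysed here.

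Nanog, Oct4 (the product of Pou5f1) and Sox2 bind together at enhancers of ES cells and keep one another expressed, and Klf4, Esrrb, Tfcp2l1, Tbx3 and Prdm14 hold the naive state with them. LIF keeps this network active through Stat3. In ES cells the early part of S phase is known to copy mostly gene-rich, active chromatin and the late part mostly gene-poor, lamina-associated chromatin. A nucleosome holds its DNA wrapped around a histone octamer, and DNA that loosens at the edge of the octamer is trimmed by MNase to a shorter fragment.

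The wrapping map held 1243 nucleosome wrapping domains (NRDs). Each carries 1 deposited wrapping index, a z-score of the balance between fragments longer and shorter than 140 bp, smoothed over 10 bins of 100 kb. The 632 domains above 0 are tight (TiNRDs) and the 611 below 0 loose (LoNRDs). This deposited list has fewer and, by the median, longer domains than the NRDs that the paper reports. The RT map held 1811 domains, each with 1 log2 ratio of early to late fractions. Of these, 832 were early (above 0) and 979 late (below 0). Both lists hold 1 value per domain and no replicates or read numbers, so the depth behind a domain is unknown and no spread between replicates can be given. No library here measures RNA, so the labelled ES cell state could not be checked against marker genes, and the positions below say nothing about expression. Positions are on GRCm38 (mm10).

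Promoter sequences show the range of base composition among these genes on the scale of nucleosomes, far below that of domains. RefSeq promoters (GRCm38.p6) were found for 7 of the 10 genes, Pou5f1, Nanog, Sox2, Klf4, Esrrb, Tfcp2l1 and Zfp42. Printed here are the 250 bases before the annotated start of the most CpG-rich of them (Klf4), the most CpG-poor (Nanog), and the gene that lay in a LoNRD (Zfp42). All are 5′ to 3′ on the strand of the gene, with each CG dinucleotide in capitals. Klf4 is at chr4:55532476-55532725 on the minus strand, Nanog at chr6:122707239-122707488 on the plus strand and Zfp42 at chr8:43307010-43307259 on the minus strand.
Klf4: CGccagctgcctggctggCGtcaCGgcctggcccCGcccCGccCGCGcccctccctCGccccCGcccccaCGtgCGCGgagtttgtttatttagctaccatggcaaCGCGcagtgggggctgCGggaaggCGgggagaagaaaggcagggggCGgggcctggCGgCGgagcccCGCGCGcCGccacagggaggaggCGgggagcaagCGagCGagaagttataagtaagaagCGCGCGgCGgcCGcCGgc
Nanog: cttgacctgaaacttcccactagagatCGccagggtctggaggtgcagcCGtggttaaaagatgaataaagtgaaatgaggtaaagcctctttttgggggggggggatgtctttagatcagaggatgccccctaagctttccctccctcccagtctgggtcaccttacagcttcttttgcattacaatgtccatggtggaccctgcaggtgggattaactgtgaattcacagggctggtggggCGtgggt
Zfp42: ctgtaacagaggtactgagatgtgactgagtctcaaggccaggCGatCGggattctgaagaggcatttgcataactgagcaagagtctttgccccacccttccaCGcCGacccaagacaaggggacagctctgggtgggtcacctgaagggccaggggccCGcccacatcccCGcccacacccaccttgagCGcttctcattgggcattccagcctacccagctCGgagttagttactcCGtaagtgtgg
Klf4 held 32 CG dinucleotides with 26.0% A/T, Nanog 3 with 48.0% A/T, and Zfp42 9 with 41.6% A/T. Sox2, whose promoter also overlaps the long noncoding gene Sox2ot, held 27, Tfcp2l1 16, Pou5f1 8 and Esrrb 6. Over 16517 RefSeq promoters of protein-coding genes the median was 10, with quartiles of 3 and 19. The octamer bound by Oct4 and other POU factors, ATGCAAAT on either strand (ATTTGCAT on the other), was found in 253 of these 16517 promoters (1.53%) and in 1 of the 7, that of Zfp42. There it began 186 bases before the start, as atttgcat in the printed sequence. This is a match of letters and no measured site. Only ATGCAAAT and ATTTGCAT themselves were searched, so variants were not counted. The printed Nanog sequence, for example, holds ttttgcat, which differs from ATTTGCAT by 1 base.

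Of the 10 genes, 9 lay in TiNRDs and Zfp42 lay in a LoNRD, beside 76.9% of all protein-coding genes in TiNRDs and 21.9% in LoNRDs. All 10 lay in early RT domains, beside 73.7% of all protein-coding genes. The 9 genes other than Zfp42 were both tight and early, as were 66.9% of all protein-coding genes, and Zfp42 was loose and early, as were 6.13%. None was late, beside 22.5% of all genes (14.2% loose and late, 7.88% tight and late), and none was without a domain, beside 1.20% of all genes in the wrapping map and 3.73% in the timing map. Because most genes are tight and early, these counts describe the 10 genes and do not set them apart. The whole body of each gene lay in a single kind of domain in both maps, and no domain border fell within a gene.

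The 10 genes lay in 9 NRDs and 9 RT domains on 8 chromosomes. Nanog and Dppa3 shared both domains, with midpoints 82.7 kb apart. Their values are therefore not independent of each other, and medians over the genes count that pair of domains once for each gene.

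**Figure D1:**
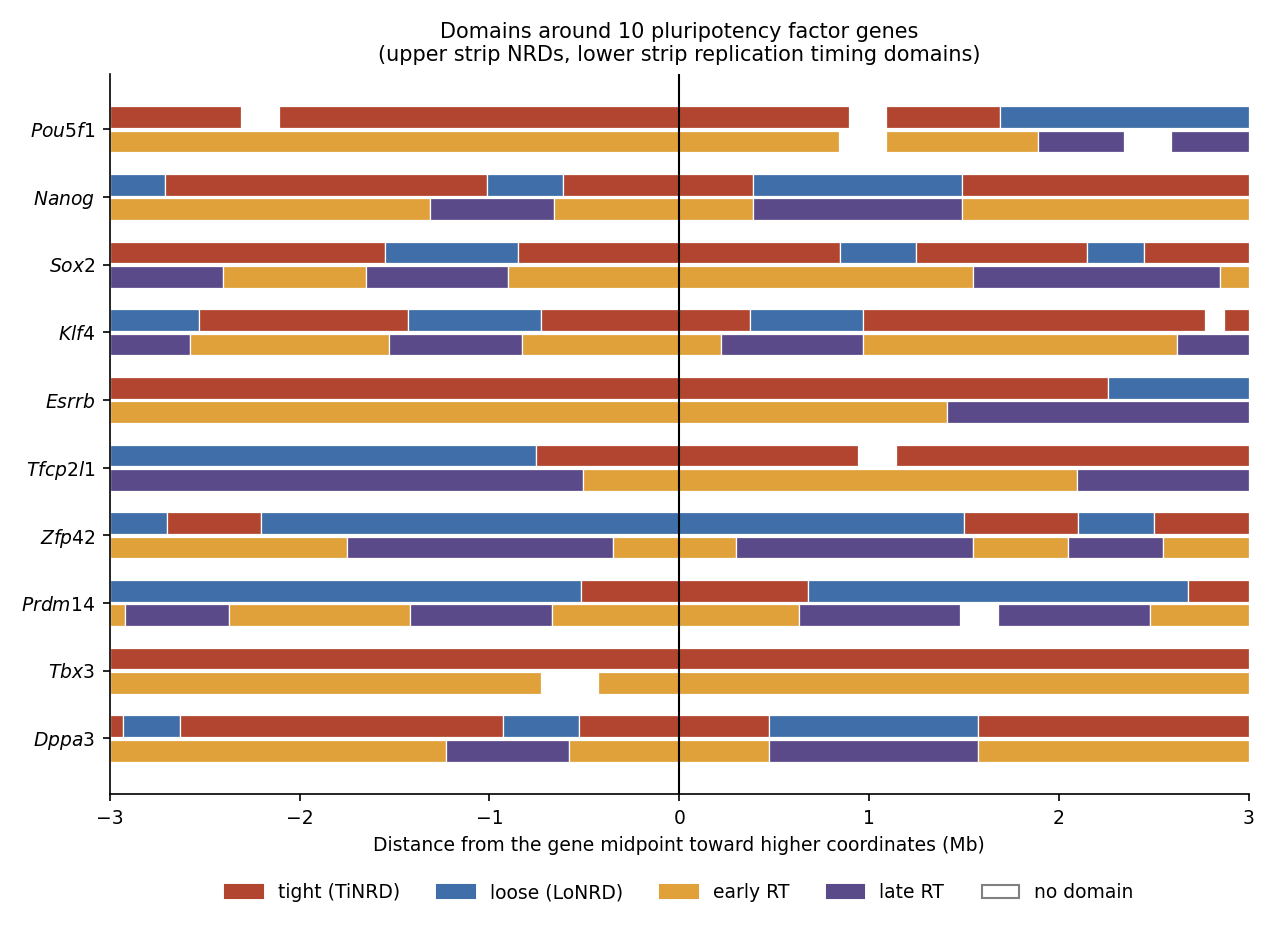
Domains within 3 Mb of the midpoint of each of the 10 genes (x axis, distance in Mb; the vertical line is the midpoint), with NRDs in the upper strip and RT domains in the lower strip of each row. The line crosses tight and early domains in 9 rows; in the row of Zfp42 it crosses a loose NRD and a short early RT domain with late domains on both sides.

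Pou5f1 encodes Oct4, the POU factor without which the inner cell mass loses pluripotency. It is at chr17:35506018-35510772 on the plus strand, among the H2 genes of the major histocompatibility complex. Its TiNRD ran from 33400001 to 36400000 with an index of 1.31, and 90.8% of protein-coding genes in TiNRDs lay in one of lower index. Its early RT domain, of 13050 kb, had a log2 value of 1.65, above that of 91.1% of protein-coding genes in early domains. Thus Pou5f1 had the highest index and the highest RT value of the 10 genes, and no other had as many coding genes around it (62 within 500 kb, itself included). On one side the nearest coding gene was H2-Q10, a class I histocompatibility gene, at 36.1 kb, and on the other Tcf19 at 6.38 kb. The NRDs on both sides were again TiNRDs, each across a gap of 200 kb without a domain, so the nearest LoNRD was 1692 kb away.

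Sox2 encodes the HMG-box partner of Oct4 and was at the low end of both scales. It is at chr3:34650405-34652461 on the plus strand, in a TiNRD of 1700 kb with an index of 0.40, below the lower quartile over coding genes in TiNRDs, 0.63. Its RT domain, of 2450 kb, had a log2 value of 0.72, the lowest of the 10 genes, with 15.3% of genes in early domains below it. No other coding gene lay within 500 kb of Sox2. The nearest on each side were Dnajc19, a mitochondrial chaperone gene, at 583 kb and Atp11b, a phospholipid flippase gene that lay in a LoNRD, at 1154 kb. Its TiNRD held 5 coding genes in all.

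Nanog encodes the homeodomain factor that lets ES cells renew when LIF is scarce, and Dppa3 encodes Stella, a maternal factor that protects DNA methylation in the zygote. Nanog is at chr6:122707489-122714633 and Dppa3 at chr6:122626410-122630272, both on the plus strand. Their TiNRD (122100001 to 123100000) and their early RT domain (122050001 to 123100000) were nearly the same interval, with 95.2% of their joint length in common and a shared end. Here the 2 maps differed in level: the index was 0.45, with 12.2% of genes in TiNRDs lower, whereas the RT value was 1.28, with 59.9% of genes in early domains lower. The TiNRD was bounded by LoNRDs of 400 kb (index -0.24) and 1100 kb (-0.79), and the RT domain by late domains of 650 kb (log2 -0.76) and 1100 kb (-0.58). Gdf3, a TGF-beta family ligand gene expressed in ES cells, lay 20.6 kb from Dppa3 in the same pair of domains, and Slc2a3, a glucose transporter gene, lay 53.7 kb from Nanog.

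Klf4 encodes a zinc finger factor that binds with Oct4 and Sox2 and is one of the reprogramming factors. It is at chr4:55527143-55532466 on the minus strand. Its TiNRD of 1100 kb had an index of 0.40, with LoNRDs of 700 kb (-0.27) and 600 kb (-0.24) on its sides, and its early RT domain of 1050 kb had a log2 value of 0.83. Klf4 was the gene closest to a border in both maps, at 370 kb in the NRD map and 220 kb in the RT map. The TiNRD held 3 coding genes, Klf4, Zfp462 and Rad23b, of which Rad23b, a DNA repair gene, was the nearest at 159 kb, and the next one on the other side, Gm26657, was 1211 kb away and in other domains.

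Prdm14 encodes a PR-domain protein of ES cells and germ cell precursors that restrains FGF signalling and DNA methyltransferase genes. It is at chr1:13113457-13127163 on the minus strand, in a TiNRD of 1200 kb with an index of 0.44 between LoNRDs of 2700 kb (-0.53) and 2000 kb (-0.28). Its early RT domain covered 1300 kb with a log2 value of 0.90 and shared 85.2% of the joint length with the TiNRD. Its nearest coding neighbours on either side were Slco5a1, a transporter gene, at 191 kb and Ncoa2, a nuclear receptor coactivator gene, at 136 kb. Around it, 25.3% of the 3 Mb on each side was TiNRD, against 100% around Tbx3.

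Tfcp2l1 encodes a Grainyhead-family factor downstream of LIF and Stat3. It is at chr1:118627945-118685168 on the plus strand, in a TiNRD of 1700 kb. Its index was 0.95, compared with 0.40 at Sox2 in a TiNRD of the same length, and lay above that of 58.9% of genes in TiNRDs. Before it lay a LoNRD of 11100 kb with an index of -1.01. Its early RT value was 0.90, with 30.5% of genes in early domains lower, so here the index ranked higher than the RT value, the reverse of Nanog. Clasp1, a microtubule-binding protein gene, was 156 kb away and Gli2, a transcription factor gene of Hedgehog signalling, 287 kb.

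Esrrb encodes an orphan nuclear receptor that Nanog activates and that can stand in for it. The gene spans 160.5 kb at chr12:86361117-86521628 on the plus strand, and lay wholly in a TiNRD of 9100 kb (index 0.81) and an early RT domain of 4700 kb (log2 1.24). Both values were close to the median over genes in domains of that kind, at 0.87 and 1.15. Of this TiNRD 80.8% was early. The nearest coding genes on its sides were Gpatch2l at 175 kb and Vash1, which encodes the tubulin carboxypeptidase vasohibin, at 244 kb, both in the same kind of domains.

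Tbx3 encodes a T-box factor downstream of LIF through PI3K signalling. It is at chr5:119670669-119684724 on the plus strand, in the longest TiNRD of the map, from 110000001 to 132100000 (22100 kb, index 1.16). Its RT domain of 6550 kb had a log2 value of 1.57, with 85.3% of genes in early domains lower. The TiNRD was not uniform in timing, since 84.8% of it was early. Although it held 279 coding genes, only 3 lay within 500 kb of Tbx3, itself included. The nearest on each side were Tbx5, its T-box neighbour, at 181 kb and Med13l, a Mediator kinase module gene, at 1015 kb in another RT domain. Tbx3 was thus near the top of both scales in a stretch with few genes.

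Zfp42 encodes Rex1, a zinc finger protein used as a marker of naive ES cells, whose gene arose as a retrocopy related to Yy1. It is at chr8:43295063-43306980 on the minus strand and was the exception of the wrapping map. Its LoNRD ran from 41100001 to 44800000 with an index of -0.76. Among the 4813 coding genes in LoNRDs, 37.3% had a lower index, so Zfp42 was neither at the loosest nor at the least loose end. The gene lay 1499 kb from the nearest TiNRD, which began at the border of the LoNRD, and 83.9% of the 1345 genes that were loose and early lay closer to a border. A shift of its position by 1 bin, much less than the 1499 kb to the border, could not move it out of the LoNRD. Its early RT domain, by contrast, measured 650 kb (42950001 to 43600000), the shortest of the 9, with a log2 value of 0.80. As the map of domains shows, it was an early stretch between late domains of 1400 kb (log2 -1.03) and 1250 kb (-0.82).

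The whole early domain of Zfp42 lay within the LoNRD, of which 29.7% was early and 70.3% late. Of the 832 early RT domains 122 (14.7%) lay wholly inside a LoNRD, and they held 427 of the 16179 coding genes in early domains (2.64%). Their median length was 450 kb and their median log2 value 0.38. The value of 0.80 at Zfp42 was above that of 95.1% of these domains. Counted by genes it stood out less, since 59.6% of the 1345 loose and early genes, most of them in domains that reach beyond a LoNRD, had a lower value. The domain held 5 coding genes, namely Zfp42, Triml1 and Triml2, which encode TRIM-like proteins, and Adam26a and Adam26b, of the testis-expressed ADAM family. The nearest on each side were Triml2 at 114 kb and Adam26b at 223 kb. The index had been smoothed over 10 bins of 100 kb, and the early domain was shorter than that span. The part of the smoothing in the LoNRD call was not tested.

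**Figure D2:**
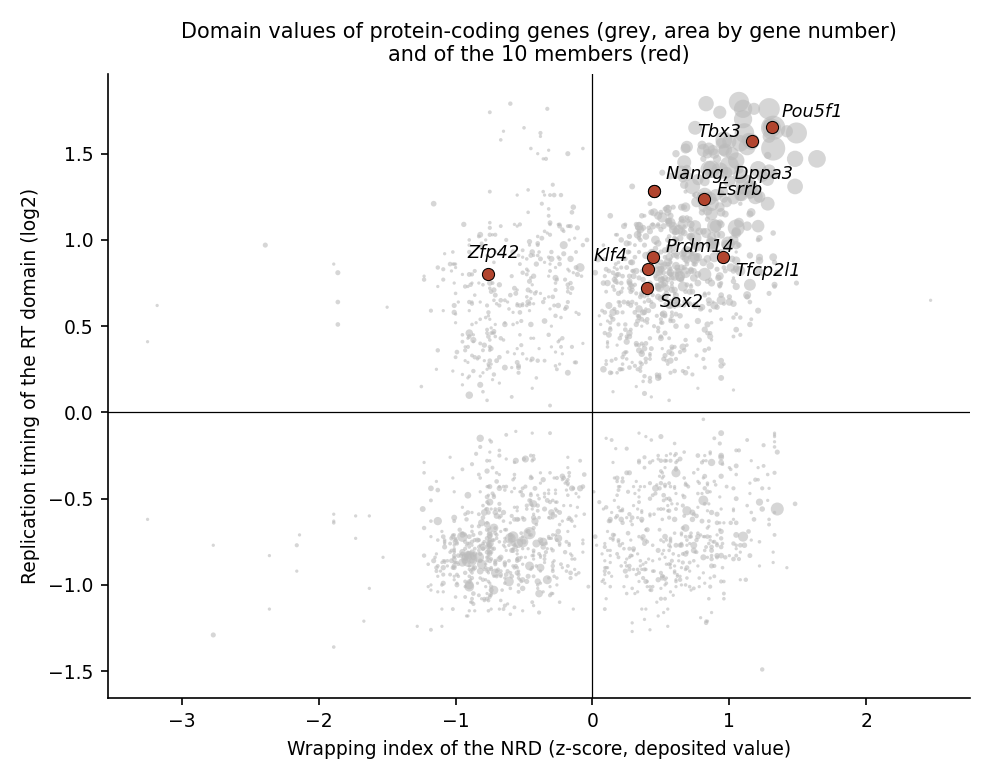
Deposited wrapping index of the NRD (x axis, z-score) against the deposited log2 value of the RT domain (y axis) for the 10 genes (red, named) and for all protein-coding genes in a domain of both maps (grey, area by number of genes that share a pair of domains). Of the 10 genes, 9 lie in the upper right, from Sox2 at 0.40 and 0.72 to Pou5f1 at 1.31 and 1.65, and Zfp42 lies in the upper left.

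The index of the 9 genes in TiNRDs ranged from 0.40 to 1.31 with a median of 0.45, beside a median of 0.87 (quartiles 0.63 and 1.10) over the 16862 coding genes in TiNRDs. Nanog, Dppa3, Sox2, Klf4, Esrrb and Prdm14 were below that median, and Pou5f1, Tbx3 and Tfcp2l1 above it. The median of 0.45 is the value of the TiNRD that Nanog and Dppa3 share, counted for both genes. Each counted once, the 8 TiNRDs had indices of 0.40, 0.40, 0.44, 0.45, 0.81, 0.95, 1.16 and 1.31. Nanog, Dppa3, Prdm14, Sox2 and Klf4 in fact lay between 0.40 and 0.45, below the lower quartile, in 4 separate TiNRDs. Low RT values went with these low indices only in part. The RT values of the 10 genes ranged from 0.72 to 1.65 with a median of 1.07. Over the 16179 coding genes in early domains the median was 1.15 (0.833 and 1.46), and 5 of 10 were below it. Sox2 (0.720), Zfp42 (0.800) and Klf4 (0.830) were also below the lower quartile. Prdm14 (0.90) was below the median, whereas Nanog and Dppa3 (1.28) were above it. The values of the 2 maps are on different scales, so only ranks within each map were compared. In the plot of both values the grey points fill all 4 quadrants and the 10 genes stand in both upper ones.

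Domain length varied too. The TiNRDs of Nanog and Dppa3, Klf4, Prdm14, Sox2 and Tfcp2l1 measured between 1000 and 1700 kb, whereas those of Pou5f1, Esrrb and Tbx3 measured 3000, 9100 and 22100 kb. Thus 6 of the 9 genes, in 5 TiNRDs, were in TiNRDs of at most 2000 kb, as were 21.5% of coding genes in TiNRDs. This limit was chosen after the lengths had been seen. With TiNRDs merged across gaps of at most 200 kb, Tfcp2l1 left this group and 5 of the 9 genes remained in it, as did 16.8% of coding genes in TiNRDs. The median over the 9 before merging was 1700 kb, beside 5000 kb (2400 and 9200 kb) over genes in TiNRDs, and with merging it was again 1700 kb beside 5900 kb. A typical TiNRD is shorter than that, with a median of 1050 kb when each domain counts once, since long TiNRDs hold many genes. RT domains of the 10 genes had a median length of 1875 kb (650 to 13050 kb), beside 2800 kb (1350 and 4800 kb) over coding genes in early domains.

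The genes lay about as far from domain borders as coding genes in general. Their distance to the nearest NRD border had a median of 803 kb and ranged from 370 kb at Klf4 to 9678 kb at Tbx3, beside 859 kb (306 and 1993 kb) over all coding genes. None was within 100 kb of an NRD border, where 9.6% of coding genes lay, a share too small to set 10 genes apart. None was within 200 kb either, a limit for which the share over all coding genes is not given here. In the RT map the distance ranged from 220 kb at Klf4 to 1409 kb at Esrrb, with a median of 489 kb beside 474 kb (200 and 1058 kb). None was within 50 kb of an RT border, beside 6.21% of coding genes. Borders are placed to 1 bin, which is 100 kb in the wrapping map and 50 kb in the timing map, and no call of the 10 genes turned on that step. The plot of lengths and distances shows all distances right of the lower quartile of their map, with Klf4 and Zfp42 the lowest in the timing map.

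**Figure D3:**
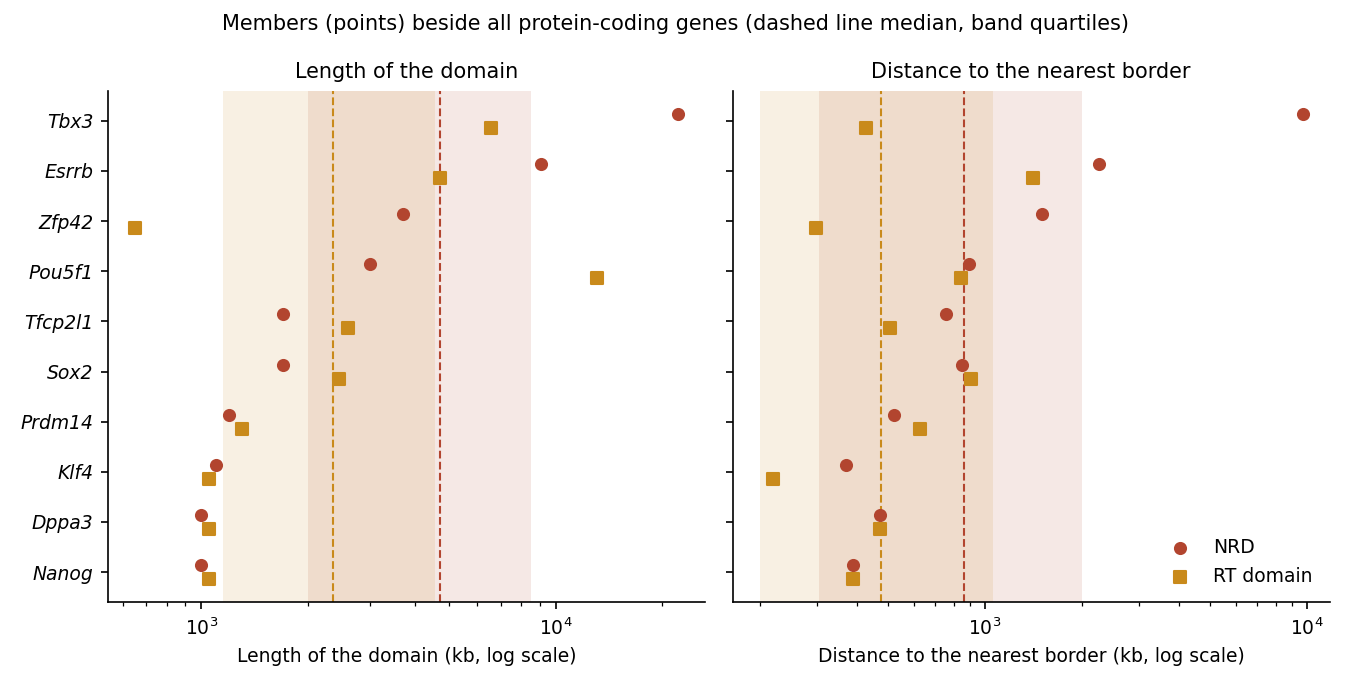
Length of the domain that holds each gene (left, kb, log scale) and distance from the gene midpoint to the nearest border (right, kb, log scale), with circles for NRDs and squares for RT domains. Dashed lines are medians and bands the quartiles over all protein-coding genes; Nanog, Dppa3, Klf4, Prdm14, Sox2 and Tfcp2l1 have NRDs of 1700 kb or less, left of the NRD band, and Tbx3 lies far to the right in both NRD values.

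Several of these TiNRDs were islands between loose domains. The TiNRDs of Nanog and Dppa3, Sox2, Klf4 and Prdm14 touched a LoNRD on both sides. This held for 431 of all 632 TiNRDs (68.2%) and for 50.1% of coding genes in TiNRDs, so it does not set these genes apart. Early RT domains that touched late domains on both sides held 8 of the 10 genes, Pou5f1 and Tbx3 being the others, beside 51.9% of coding genes in early domains. Counted by domains, these were 7 of the 9 that held the genes, beside 493 of all 832 early domains (59.3%). The difference was not tested. How closely the tight and the early domain coincided differed from gene to gene. The share of their joint length that the domains had in common was 95.2% at Nanog, 85.2% at Prdm14, 79.2% at Klf4 and 69.4% at Sox2, but 51.6% at Esrrb, 50.9% at Tfcp2l1, 29.6% at Tbx3 and 22.5% at Pou5f1. Over coding genes that were tight and early the median was 51.6% (29.5 and 72.1%). Of the 16 edges of the 8 TiNRDs, 6 lay within 100 kb of an edge of an early domain that faced the same way, beside 25.6% of the 1264 edges of all TiNRDs.

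The surroundings of the 10 genes were gene-poor by the median, with 6.5 coding genes within 500 kb (1 to 62), beside 16 (9 and 28) over all coding genes. Only Pou5f1, Nanog and Dppa3 had more than that median. By base composition the 9 tight genes were close to genes of their own class. The 100 kb bin at the 9 genes in TiNRDs had a median A/T content of 54.6%, beside 54.3% (51.4 and 56.8%) over coding genes in TiNRDs, from 50.9% at Pou5f1 to 55.1% at Dppa3. Within the 9, the genes of lowest index, Prdm14, Sox2, Klf4, Nanog and Dppa3, had more A/T, at 54.6% to 55.1%. Pou5f1, Tbx3, Esrrb and Tfcp2l1 had 50.9% to 53.2%. Inside these groups, higher A/T content did not always go with lower index. Tfcp2l1 had more A/T than Esrrb (53.2% against 51.5%) and the higher index (0.95 against 0.81). Nanog and Dppa3, which share 1 TiNRD, had the most A/T of the 9 but not the lowest index. The bin at Zfp42 had 57.6% A/T, and 8.03% of loose and early genes had less. It was higher than at the other 9 and lower than at most loose genes, whose median was 59.8% (58.8 and 60.8%) when early and 61.2% (60.1 and 62.4%) when late. MNase prefers A/T-rich DNA, and A/T content therefore stands here beside the index, whose dependence on it was not tested.

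**Figure D4:**
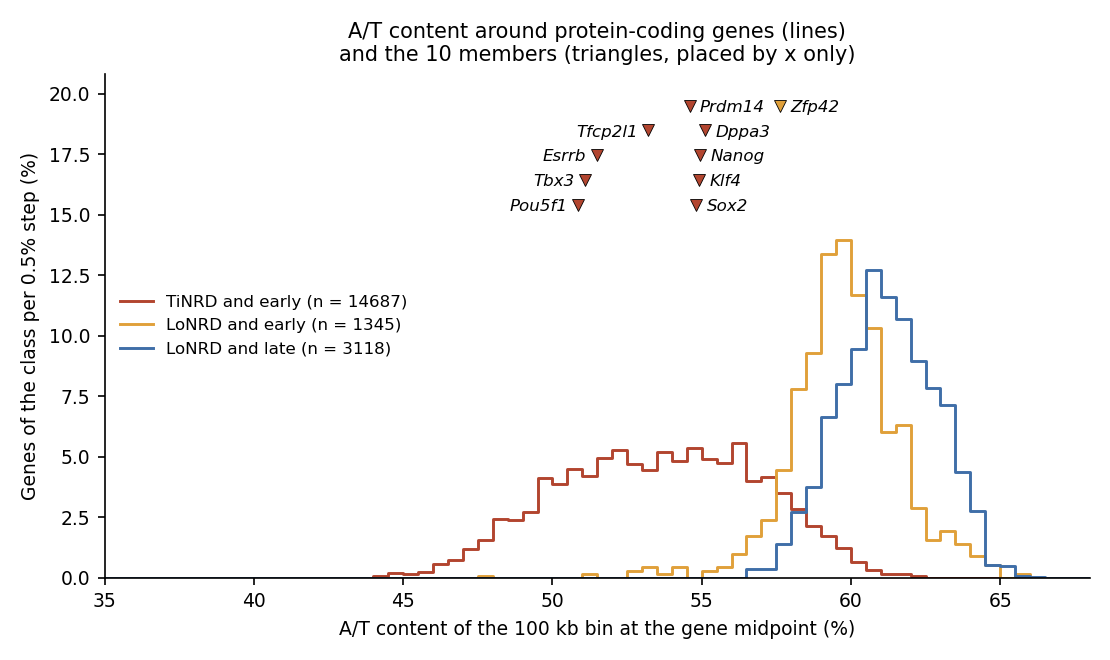
A/T content of the 100 kb bin at the midpoint (x axis, %) of protein-coding genes that were tight and early, loose and early, or loose and late (lines, share of each class per 0.5% step), with the 10 genes as triangles placed by their x value only. Zfp42, at 57.6%, lies at the low edge of the loose classes, and the 9 tight genes lie between 50.9% and 55.1%, within the tight and early class.

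Other genes of pluripotency, signalling and early lineages, and close paralogs of the 10 genes, were described from 6 lists. Of 11 other naive factors, 9 were tight and early and 2 were loose and early. One of these, the X-linked Nr0b1, encodes Dax1, a nuclear receptor that binds Oct4, and had an index of -0.88 and a log2 value of 0.33. Of 18 ES cell markers and target genes, 16 were tight and early, and the adjacent genes Dppa2 and Dppa4, which encode SAP-domain partners that keep bivalent promoters free of methylation, shared a LoNRD (-0.56) and an early domain (0.69). All 19 genes of LIF, BMP, WNT and FGF signalling were tight and early, with the highest index, 1.49, at Socs3, the feedback inhibitor of LIF signalling, and Grb2, the FGF adaptor. The highest index among naive factors, 1.21, was that of Sall4 and Tfap2c, and among markers those of Lin28a (1.29), which encodes an RNA-binding inhibitor of let-7 maturation, and Tcl1 (1.22), an Akt coactivator gene.

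All 10 formative and primed genes were tight, led by Pou3f1 (1.29) and Etv4 (1.10), and 9 were early, while Fgf5 had no RT domain. Among 16 lineage regulators, which ES cells largely keep silent, 15 were tight and 14 early. The highest indices were those of Gsc (1.22) and Cdx2 (1.08), regulators of the organizer and of trophectoderm. Gata6, the regulator of primitive endoderm, was tight (0.33) and late (-0.61), Sox17, of endoderm, was loose (-0.57) and early (0.72), and Foxa2 had no RT domain. Of 13 close paralogs of the 10 genes, 11 were tight and early, with the highest indices at Pou3f1 and at Yy1 (1.22), the ancestral relative of Zfp42. Sox3, the X-linked paralog of Sox2, was loose (-0.77) and late (-0.52), and Esrrg, a paralog of Esrrb, was tight (0.37) and late (-0.96). The median index was 1.08 in naive factors, 0.69 in markers, 0.89 in signalling genes, 0.65 in formative genes, 0.68 in lineage regulators and 0.85 in paralogs, beside 0.45 over the 10 genes and 0.74 over all coding genes. The 0.45 over the 10 genes is the value of the TiNRD of Nanog and Dppa3, counted for both. Tight and early was the most frequent class in each list, as the bars by list show, and no list was tested.

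**Figure D5:**
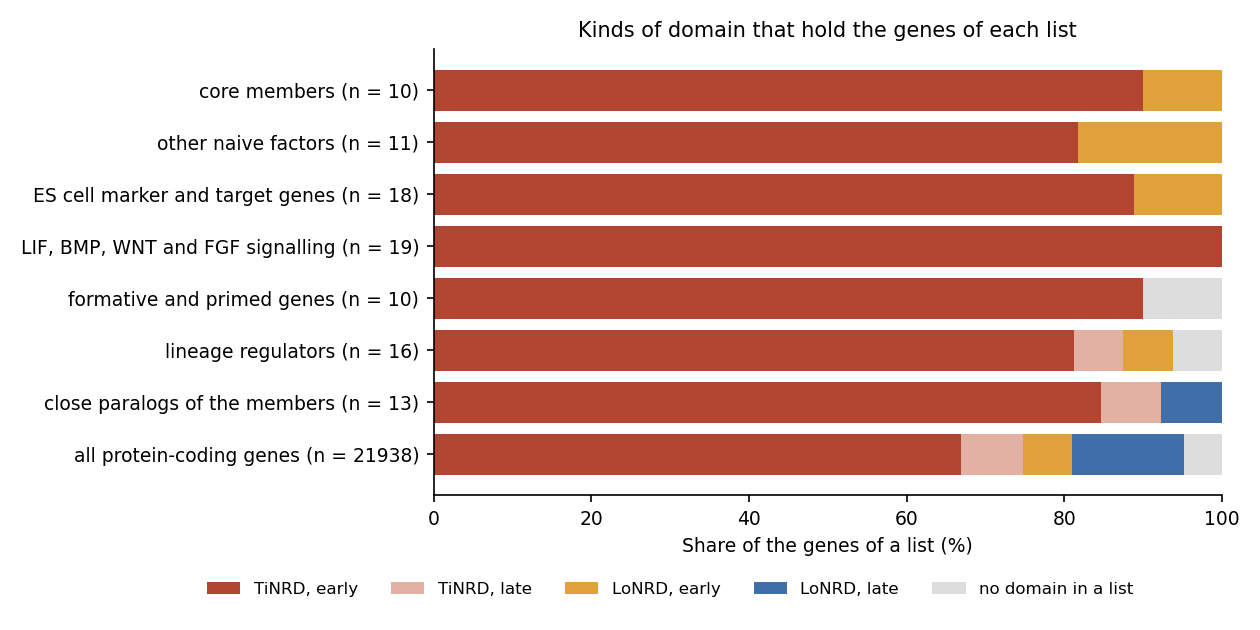
Share of the genes of each list (x axis, %) by the kind of NRD and of RT domain that held them, with n the number of genes. Tight and early genes are the largest class in every bar, from 66.9% of all protein-coding genes to all 19 signalling genes. Loose and early genes appear for Zfp42, for naive factors, for markers, for lineage regulators and for all protein-coding genes (6.13%).

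Other genes of the lists shared the pattern of Zfp42. The 10 genes and the 6 lists hold 93 different genes, and 6 of them were loose and early, among them Zfp42, Nr0b1, Dppa2, Dppa4 and Sox17. That is close to the 6.13% over all protein-coding genes, so the count is no trait of these genes. They lay in 5 early domains of 400 to 850 kb, and each of these domains lay wholly within a LoNRD. Over all coding genes, 427 of the 1345 that were loose and early lay in such domains. The LoNRDs measured from 3700 kb at Zfp42 to 16100 kb at Nr0b1. Of coding genes in LoNRDs, 56.4% lay in one shorter than that of Zfp42. A/T content of the 100 kb bin was 57.6% at Zfp42, 57.7% at Dppa4, 57.9% at Dppa2, 58.6% at Sox17 and 61.9% at Nr0b1, beside the median of 59.8% over all loose and early genes. These genes were singled out after their domains had been seen.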

How the data were processed

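The authors trimmed reads with cutadapt 4.3, aligned them to mm10 with Bowtie2 2.5.1, marked duplicates with Picard, filtered with SAMtools and counted fragments with bedtools 2.30.0, per the submitters' processing notes. For NRDs the deposited score is the authors' wrapping index (z-score of the relative deviation between fragments above and below 140 bp, from H3, in 100 kb bins smoothed by 10 bins). The deposited log2 value of each RT domain is the ratio (S1+S2)/(S3+S4) in 50 kb windows after scaling to a common total and quantile normalization. Domains of both lists were called with FindHiCCompartments of homer2. How a domain's value was made from its bins, and whether experiments were pooled, is not given in the sources used here. No read numbers are in the lists, so depth and precision are unknown.

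Protein-coding genes of GENCODE M21 were assigned by midpoint. A border is a start or an end of a listed domain, whatever lies outside it. Genes in gaps have no domain. Medians and quartiles over all coding genes stand beside those of the 10 genes, and no test was made. A/T content came from GRCm38 and promoters from RefSeq. All domains lay inside GRCm38 chromosomes, and the last RT domain ended at the chromosome end on 20 of 21. The 10 genes and all lists were chosen with earlier results of these data known. Named were the 10 genes, their nearest coding neighbours, list genes in loose, late or no domain (1 is not reported here), the 2 genes of each list with the highest index, and list genes sharing both domains with a member. Alternatives changed the placing point, the domains used, the borders and the background. Python 3.11.15, numpy 2.4.6 and matplotlib 3.10.9 were used, with scripts tested on simulated domains.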

Additional observations from a re-analysis of the deposited data

How the results depend on the processing

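The counts of genes in TiNRDs (9), in early RT domains (10) and in both (9) were the same when genes were placed by transcription start or by most of the gene body, when midpoints moved by 1 bin in either direction, with domains of at least 500 kb only, with gaps given to the nearest domain, and with RefSeq positions, an alternative added after the data were seen. Apart from the RefSeq positions, these alternatives could not have changed the counts and add no support to them. No border fell within a gene or within 1 bin of a midpoint, no gene was in a gap, and the shortest domain was 650 kb. With each domain counted once the counts were 8, 9 and 8. The median distance to the nearest NRD border ranged from 789 to 849 kb and that to the nearest RT border from 476 to 568 kb. Merging neighbours of the same kind across gaps of at most 200 kb raised the median length of the NRDs of all 10 genes from 1700 to 2700 kb and, in an alternative added after the data were seen, left 5 in place of 6 genes in TiNRDs of at most 2000 kb. Counting each RT domain once moved the median RT length from 1875 to 2450 kb. The background share ranged from 68.5 to 80.8% for TiNRDs and from 61.9 to 77.4% for early domains, lowest over genes of any biotype and highest without olfactory and vomeronasal receptor genes. Without replicate values, none of these ranges is an experimental error.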
